A study of Mus musculus with 15 samples.

Results

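The effect of deleting STING from the endothelium was examined in hearts that had undergone sham surgery, by comparing 3 KO sham libraries (numbered 348, 349 and 350) with 3 WT sham libraries (numbered 131, 132 and 133) over all genes. These are 6 of the 15 libraries of the study, chosen by the genotype and surgery in their labels. All mice were STINGfl/fl, with loxP sites around the gene for STING. KO mice were Cad5CreERT2+/+, with a tamoxifen-inducible Cre recombinase under the promoter of vascular endothelial cadherin, and WT mice were Cad5CreERT2-/-. Cre was thus present in KO mice alone, and effects of Cre and of STING loss cannot be told apart. The sample numbers also followed genotype, 131 to 138 in WT and 348 to 354 in KO. Any difference between these number series cannot be told apart from genotype either. The inducing agent, and the age, sex and strain of the mice, are not given in the sources used here. Endothelial cells were sorted by flow cytometry as CD31+ and CD45- cells 4 weeks after surgery. The other 9 libraries, 5 WT TAC and 4 KO TAC, came from hearts subjected for 4 weeks to transverse aortic constriction, which places a pressure load on the left ventricle.

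STING sits in the endoplasmic reticulum and is activated by a cyclic dinucleotide that the sensor cGAS makes on cytosolic DNA. It recruits the kinase TBK1, which phosphorylates the transcription factor IRF3, and the resulting type I interferon induces the interferon-stimulated genes. STING also feeds into NF-kappaB signalling. The tumour suppressor p53 is a transcription factor stabilised by DNA damage and other stress, and its targets restrain the cell cycle, promote cell death and buffer metabolic stress. Capillary endothelium of the heart takes up fatty acids from blood for the neighbouring cardiomyocytes.

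Levels below are CPM, the counts of a gene scaled to a common library size, in each library, listed in the order WT sham 131, 132 and 133 and then KO sham 348, 349 and 350. Differences are log2 fold changes of KO sham minus WT sham ± SE. A gene is said to rise, fall or change when its adjusted p was under 0.05 in the quasi-likelihood test of edgeR, adjusted by Benjamini and Hochberg's method over the 12471 genes tested. The labels number the samples without saying that each is a separate mouse, so p-values measure a spread between samples that may be technical. That spread was estimated over all 15 libraries, the 9 TAC libraries included, and not over the sham libraries alone. WT sham 133 was shallow, with 1362346 counts against 4801095 to 13742798 in the other 5 sham libraries. A value of 2.26 CPM in WT sham 133 is 3 counts. Lower values there, as for Gtse1, Kif20a, Fanca and Sulf2 below, rest on fewer. KO sham 348 and 350 lacked any count for 206 and 319 genes from which 10 or more were expected, against 4 to 17 in the other 4 sham libraries. Replicates were less alike in KO sham. The lowest Spearman correlation of a library within its group was 0.9526 to 0.9653 in KO sham and 0.983 to 0.9846 in WT sham. The endothelial markers Cdh5 and Pecam1 were abundant in every sham library, at 3333 to 4422 CPM and 1617 to 2244 CPM. Ptprc, which encodes CD45, was at 0.283 to 2.26 CPM.

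Of the 12471 genes tested, 1148 (9.21%) changed between KO sham and WT sham. The 570 higher genes made up 4.57% and the 578 lower genes 4.63% of those tested, and these shares are the background for the gene groups below. Genes that rose by over 2-fold numbered 194, and genes that fell by over 2-fold numbered 88. The sham libraries of both genotypes did not overlap for 2794 genes (22.4%) and for 1076 of the changed genes. Genes named as the 15 largest changes in each direction were picked only from genes without overlap, so the separation of those genes was required. The median log2 fold change of all genes was -0.00486. When the 6 sham libraries were fitted alone, without the TAC libraries, 289 genes were called. The number of changed genes fell to 505 without WT sham 132, 599 without WT sham 133 and 742 without KO sham 348, and rose to 2014 without KO sham 349. Without KO sham 348 and 350 together it was 394, of which 340 were among the 1148, and limma voom with sample quality weights called 463.

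**Figure D1:**
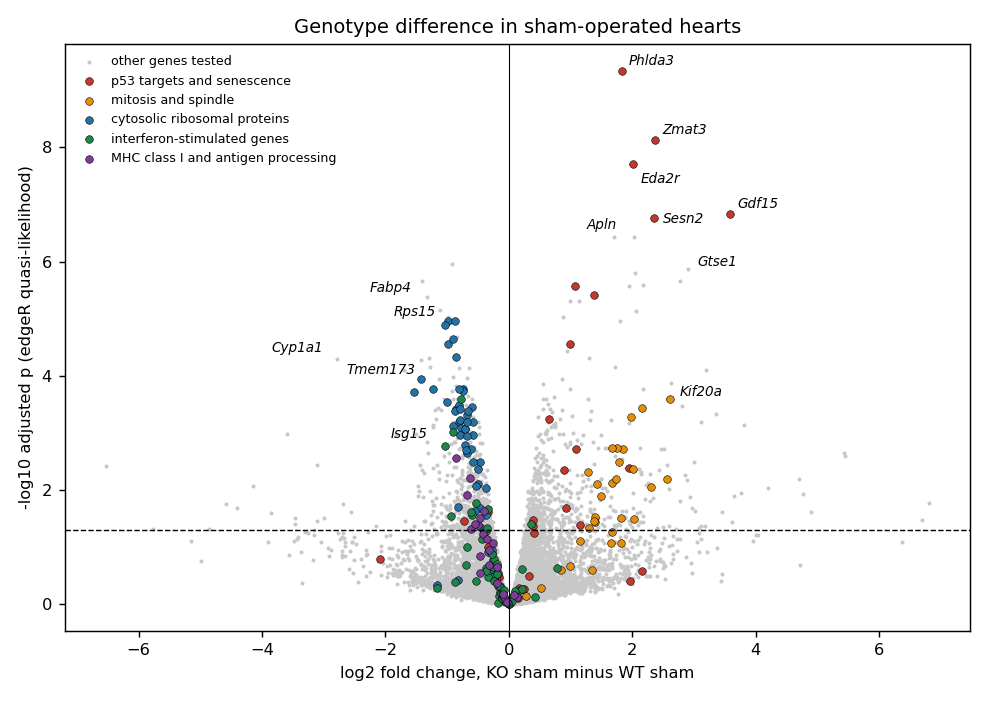
Log2 fold change of KO sham minus WT sham (x axis) against -log10 of the adjusted p from edgeR (y axis) for every gene tested except Rprl3, which was at 0 in all WT sham libraries. Coloured points are members of 5 gene lists and the dashed line is the adjusted p of 0.05. Members of the p53 list stand at the top right and ribosomal protein genes at the upper left of the centre.

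Tmem173, the older symbol of the gene for STING (Sting1; mm10 chromosome 18, 35733678 to 35740554, minus strand), was at 53.95, 65.7 and 56.4 CPM in WT sham and 22.9, 31.4 and 17.3 CPM in KO sham. All KO sham libraries lay below all WT sham libraries, and the fold change was -1.28 ± 0.17 (adjusted p = 6.99e-05). Reads were counted over the whole gene, and which exons are flanked by loxP is not given in the sources used here. Of 26 genes of the cGAS-STING pathway and of cytosolic nucleic acid sensing, 3 fell and 0 rose in edgeR, with 23 not called and a median of -0.10. DESeq2 called 1 of the 26 higher. Beside Tmem173, the other 2 that fell were Hsp90b1, an endoplasmic reticulum chaperone (-0.30 ± 0.09), and Trim56, a ubiquitin ligase that acts on the pathway (-0.31 ± 0.10). The kinase gene Tbk1 had a value of -0.22 ± 0.10 and Irf3 one of -0.30 ± 0.14, with adjusted p of 0.189 and 0.204 in edgeR and overlapping libraries. Refits without 1 library ended the calls on Hsp90b1 (without 131, 132, 348, 349 or 350, highest adjusted p = 0.162) and Trim56 (without 131, 132, 133, 349 or 350, highest adjusted p = 0.177).

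Targets of the transcription factor p53 were higher. Phlda3, Zmat3, Eda2r, Gdf15 and Sesn2 had the smallest p-values of the list, and rose by 1.83, 2.37, 2.02, 3.58 and 2.35. Of 31 tested genes of p53 and senescence, 16 rose (51.6%, against 4.57% of all genes) and 2 fell (6.45%, against 4.63%), with a median of 0.65. The 13 others were not called.

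Phlda3 (chromosome 1, 135766085 to 135769134), an inhibitor of the kinase AKT, was at 18.7, 20.5 and 19.6 CPM in WT sham and at 62.8, 69.2 and 77.5 CPM in KO sham. The replicates of each group were close together and far from the other group, and the fold change was 1.83 ± 0.11 (adjusted p = 4.51e-10, the smallest of the list). Zmat3 (chromosome 3, 32334794 to 32365665), which encodes an RNA-binding protein, was at 20.3, 18.04 and 25.6 CPM against 113, 119 and 75.9 CPM, with KO sham 350 the lowest of the KO libraries and still above every WT library (2.37 ± 0.17, adjusted p = 7.34e-09). For Zmat3 the rule for named genes required that separation. The ectodysplasin A2 receptor gene Eda2r (chromosome X, 97333841 to 97377209) rose by 2.02 ± 0.15, from 33.8, 43.3 and 28.6 CPM to 131, 175 and 142 CPM. Gdf15 (chromosome 8, 70629394 to 70631635), a circulating stress cytokine, was at 2.45, 2.00 and 3.01 CPM in WT sham. In KO sham it was at 17.6, 33.5 and 31.1 CPM, lowest in 348, and rose by 3.58 ± 0.30 (adjusted p = 1.45e-07). Sesn2 (chromosome 4, 132492807 to 132510456), a leucine sensor that restrains mTORC1, rose by 2.35 ± 0.20, with 3.76 to 10.8 CPM in WT sham and 41.3 to 49.1 CPM in KO sham.

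Of 29 apoptosis regulators tested, a list that shares genes with the p53 list, 3 rose (10.3%) and 2 fell (6.9%), with a median of 0.05. Bax, the effector that permeabilises the outer mitochondrial membrane, went from 45.3, 51.3 and 53.4 CPM to 108, 111 and 92.1 CPM (1.08 ± 0.11, adjusted p = 2.63e-06). Bbc3, which encodes the BH3-only protein PUMA, rose by 0.90 ± 0.19, the nuclease gene Aen by 1.09 ± 0.21, Ei24 by 0.65 ± 0.11, and Trp53inp1, which promotes autophagy and cell death, by 1.38 ± 0.15. Ccng1, which encodes cyclin G1 and acts in a feedback on p53, rose by 1.00 ± 0.13. Cdkn1a, the gene for the cyclin-dependent kinase inhibitor p21, was at 194, 268 and 333 CPM in WT sham and 504, 462 and 509 CPM in KO sham (0.92 ± 0.24, adjusted p = 0.0211). Its 3 KO libraries were alike and the WT libraries spread more widely without reaching them. Further risers included Lrdd (Pidd1), a scaffold that activates caspase-2 (1.95 ± 0.40), Trp53 itself (0.39 ± 0.12) and Mdm2, its ubiquitin ligase (0.40 ± 0.11). The libraries of the groups overlapped for Lrdd and Mdm2. The death receptor gene Fas, which p53 can induce, and Cdkn1b, which encodes the inhibitor p27, fell by 0.73 and 0.34.

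In refits without 1 library the p53 list had 11 to 16 higher genes, and it had 13 without WT sham 133, KO sham 348 and KO sham 350 together. Against a fold of 1.5 it held 8. Single libraries ended the calls on Cdkn1a (without 131, 132 or 348, highest adjusted p = 0.118), Mdm2 (without 131, 132 or 349, highest adjusted p = 0.17), Lrdd (without 132, highest adjusted p = 0.0634), Trp53 (without 131, 132, 133 or 350, highest adjusted p = 0.194), Fas (without 132, 133 or 348, highest adjusted p = 0.152) and Cdkn1b (without 131, 132 or 348, highest adjusted p = 0.098).

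**Figure D2:**
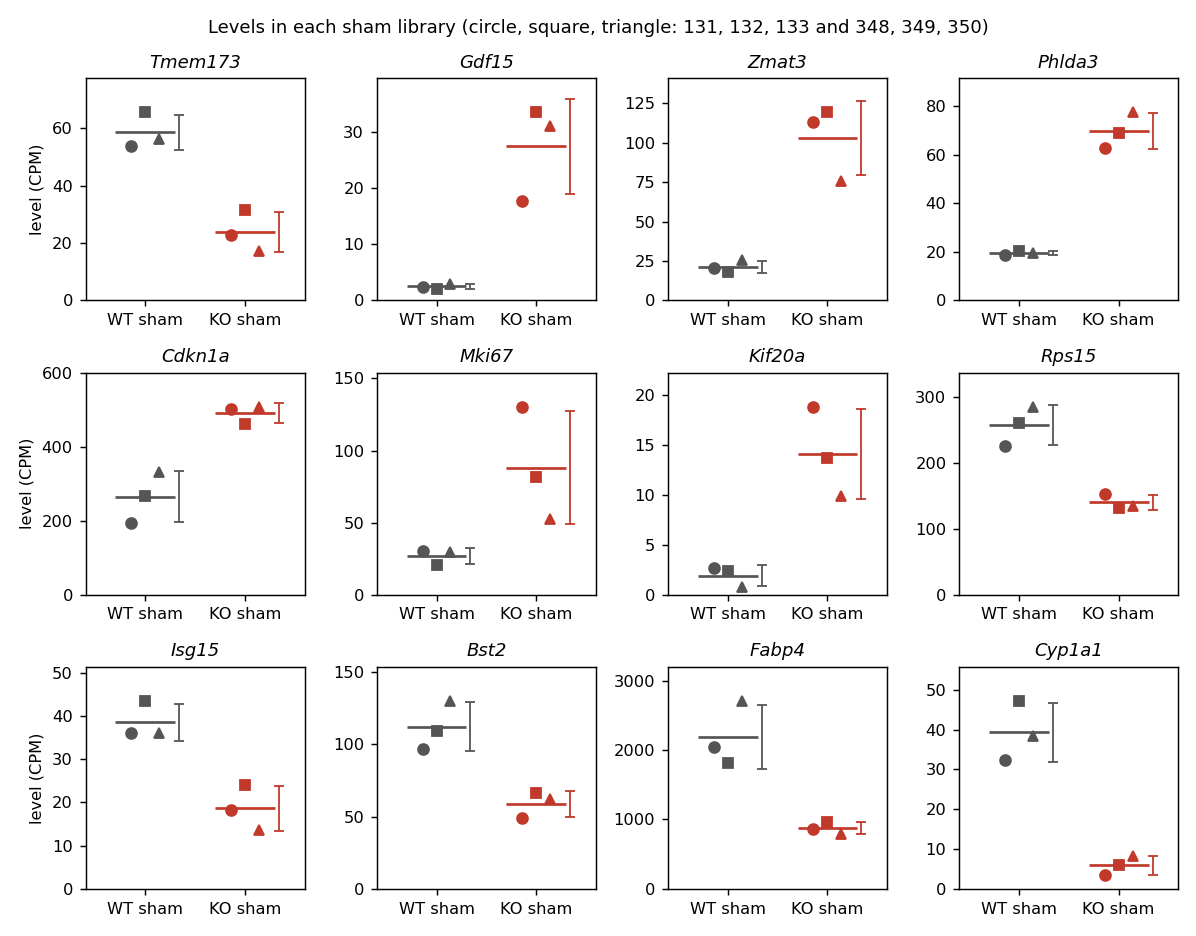
Level in CPM (y axis, from 0) of 12 genes in each sham library, with circle, square and triangle for libraries 131, 132 and 133 in WT sham (grey) and 348, 349 and 350 in KO sham (red). Horizontal lines are group means and error bars the SD (n = 3). The libraries of both groups do not overlap for any of these 12 genes, against 22.4% of all genes tested. Gdf15, Zmat3, Kif20a and Cyp1a1 among them were named under a rule that required this.

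The promoters of the p53 group were searched for the p53 response element, which joins 2 half-sites of 10 letters, in windows from 250 bases before to 50 bases after the RefSeq transcript start (GRCm38.p6). Of the 16 risen genes 13 had a window, and Cdkn1a and Ccng1 held an element with at most 1 mismatch, in 2 of 18 windows (11.1%) against 0.0883% of all 32851 windows. With up to 3 mismatches 6 genes held one, in 38.9% of their windows against 6.29% of all. Gtse1, a gene outside the list that encodes a negative regulator of p53, held one with at most 1 mismatch. Gtse1 was at 1.89, 2.81 and 0.752 CPM in WT sham and 13.1, 19.4 and 18.1 CPM in KO sham (2.90 ± 0.29, adjusted p = 1.37e-06). Both are shown from 200 bases before to 20 after the start, 5′ to 3′, with the element in capitals, because they carry the motif that names the group.
Cdkn1a (chr17:29090779-29090998, plus strand): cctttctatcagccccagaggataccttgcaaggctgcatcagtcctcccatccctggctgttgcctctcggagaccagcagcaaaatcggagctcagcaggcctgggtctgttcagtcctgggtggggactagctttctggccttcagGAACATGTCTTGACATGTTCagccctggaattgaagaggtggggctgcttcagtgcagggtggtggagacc
Gtse1 (chr15:85859746-85859965, plus strand): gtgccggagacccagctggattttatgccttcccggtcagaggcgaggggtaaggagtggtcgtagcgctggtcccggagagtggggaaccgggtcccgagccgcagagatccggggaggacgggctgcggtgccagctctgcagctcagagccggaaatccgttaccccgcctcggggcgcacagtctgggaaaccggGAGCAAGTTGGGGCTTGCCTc
Such a match is a description of the letters and not a measured binding site. The list was made of known p53 targets, and its members that did not rise were not counted. These shares therefore do not bear on the change in KO sham.

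Transcripts of dividing cells were also more abundant. Of 30 genes of mitosis and the spindle, 21 rose (70%) and 0 fell, all 30 had a fold change above 0, and the median was 1.68. The level summed over the list came to 146.8, 124.9 and 130.9 CPM in the WT libraries and to 530.2, 448.2 and 279.1 CPM in the KO libraries. Because these are bulk libraries of sorted cells, more dividing cells and more RNA per cell cannot be told apart, here and for every gene group below.

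Kif20a, a kinesin of the midzone of the dividing cell, was at 2.64, 2.37 and 0.752 CPM against 18.9, 13.7 and 9.87 CPM (2.62 ± 0.40, adjusted p = 0.000259). Prc1, which bundles the microtubules of that midzone, went from 7.26, 5.62 and 3.01 CPM to 34.4, 22.01 and 24.1 CPM (2.16 ± 0.34). In both, KO sham 348 was the highest library and every KO library lay above the WT range. For Kif20a the rule for named genes required that separation. Cdk1, the kinase that starts mitosis, rose by 1.98 ± 0.32, with 1.92 to 3.76 CPM in WT sham and 6.79 to 10.3 CPM in KO sham, and Ccnb1 and Ccnb2, which encode its cyclin B partners, by 2.31 ± 0.53 and 1.67 ± 0.38. Mki67, the gene of the proliferation antigen Ki-67, was at 30.4, 20.4 and 29.4 CPM in WT sham and 130.5, 81.5 and 52.4 CPM in KO sham (1.79 ± 0.36, adjusted p = 0.00321), with the KO libraries well apart from each other. Topoisomerase II alpha (Top2a) rose by 1.85 ± 0.35, the kinetochore protein gene Cenpf by 1.76 ± 0.33, and the checkpoint kinase gene Bub1 by 2.57 ± 0.57. Outside the list, the spindle genes Ckap2, Spag5 and Gas2l3, the cohesin protector Sgol2 (Sgo2a) and the checkpoint gene Kntc1 were among the 15 largest increases under the rule for named genes, at 2.23 to 2.81.

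Of 30 DNA replication genes tested, 6 rose (20%) and 0 fell in edgeR, with a median of 0.50, and they included Pole, the catalytic subunit of DNA polymerase epsilon (1.83 ± 0.36), the transcription factor gene E2f1 (1.83 ± 0.49) and the helicase subunits Mcm5 (0.68 ± 0.20) and Mcm7 (0.66 ± 0.16). Of 38 genes of DNA damage response and repair, 3 rose (7.89%, against 4.57%) and 1 fell (2.63%), with a median of 0.02. Fanca of the Fanconi anaemia complex rose by 2.86 ± 0.62, from 1.04, 0.813 and 0.752 CPM to 11.6, 3.04 and 5.14 CPM, with KO sham 348 far above the other 2 KO libraries. Brca1, which acts in homologous recombination, rose by 1.54 ± 0.47 and the translesion polymerase gene Polk by 0.44 ± 0.14, while Xpc, a damage sensor of nucleotide excision repair, fell by 1.03 with overlapping libraries.

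The mitosis list held 13 higher genes without WT sham 131, 12 without WT sham 132, 10 when the 6 sham libraries were fitted alone and 19 without WT sham 133, KO sham 348 and KO sham 350. The replication list held 3, 1 and 3 without WT sham 131, 132 and 133, and 4 higher and 2 lower without KO sham 349; the repair list held 1, 0 and 1 higher genes without WT sham 131, 132 and 133, and 3 higher genes with 4 lower without KO sham 349 and with 3 lower without KO sham 350. With the length trend removed the repair list held 1 higher and 1 lower. Calls that a single library ended were those on Bub1 (without 132, highest adjusted p = 0.069), Ccnb1 (without 131, highest adjusted p = 0.0636), Ccnb2 (without 132, highest adjusted p = 0.0752), Kntc1 (without 132, highest adjusted p = 0.0801), E2f1 (without 132, 133 or 350, highest adjusted p = 0.144), Mcm5 (without 131, 132 or 133, highest adjusted p = 0.189), Mcm7 (without 132, highest adjusted p = 0.0892), Fanca (without 132, highest adjusted p = 0.0526), Brca1 (without 131, 132, 133, 348 or 350, highest adjusted p = 0.156), Polk (without 131, 132, 133 or 349, highest adjusted p = 0.229) and Xpc (without 132, highest adjusted p = 0.069).

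Many promoters of mitotic genes carry the cell cycle homology region, a short element bound by repressor complexes in resting cells. The letters TTTGAA were found on either strand in 14 of the 18 risen mitosis genes that had a window, in 78.9% of their windows against 17.9% of all. Mitosis genes that did not rise were not counted, so this share does not bear on the change in KO sham. The promoters of Cdk1 and Ccnb2 are shown with both copies in capitals, and in each the copy nearer the start lies within 20 bases of it.
Cdk1 (chr10:69352893-69353112, minus strand): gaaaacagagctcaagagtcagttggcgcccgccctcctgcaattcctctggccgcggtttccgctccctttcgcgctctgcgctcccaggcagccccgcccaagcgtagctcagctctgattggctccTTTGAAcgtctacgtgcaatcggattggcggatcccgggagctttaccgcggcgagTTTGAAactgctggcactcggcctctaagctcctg
Ccnb2 (chr9:70421535-70421754, minus strand): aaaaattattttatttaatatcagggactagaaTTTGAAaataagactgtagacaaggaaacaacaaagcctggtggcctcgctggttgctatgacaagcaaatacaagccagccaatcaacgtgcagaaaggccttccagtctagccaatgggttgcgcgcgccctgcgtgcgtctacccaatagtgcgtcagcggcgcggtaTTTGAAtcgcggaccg

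**Figure D3:**
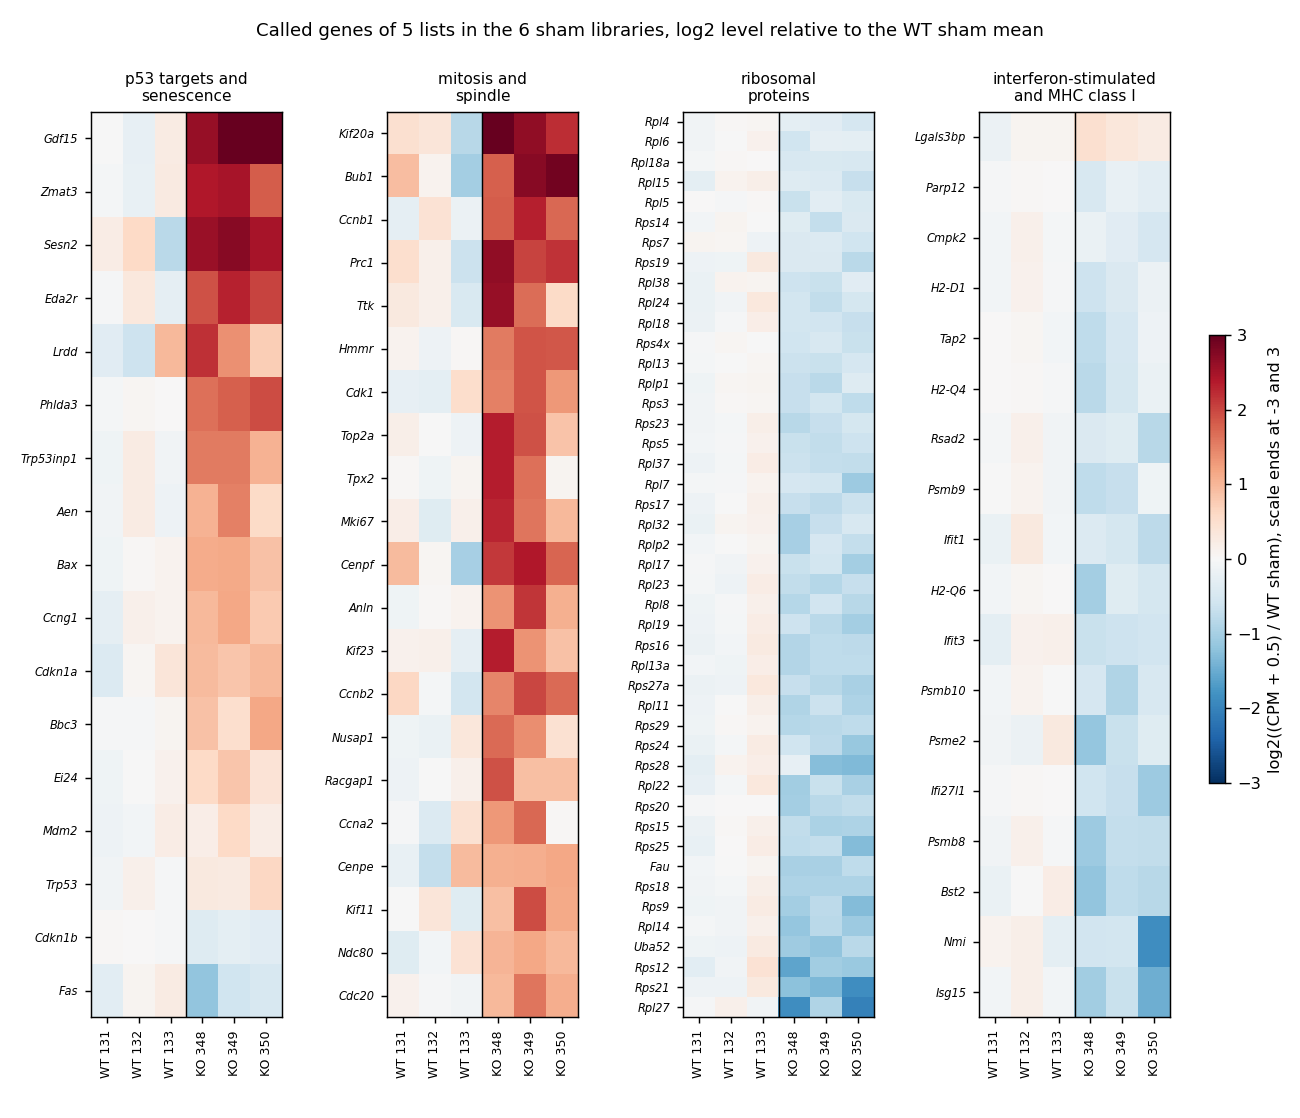
The genes shown were called in KO sham against WT sham in 5 lists (rows, ordered by fold change) across the 6 sham libraries (columns), as log2((CPM + 0.5) / WT sham) with the mean log2 level of WT sham as zero and colours ending at -3 and 3. The p53 genes and mitosis genes are red in the KO columns except Cdkn1b and Fas, KO sham 350 is the palest KO column for several mitosis genes, and the ribosomal protein genes are blue in all 3 KO columns.

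Genes of protein synthesis were lower. Of 59 cytosolic ribosomal protein genes, 46 fell (78%, against 4.63% of all genes) and 0 rose, and 58 had a fold change below 0, with a median of -0.68. Their level summed to 8625, 9101 and 10110 CPM in WT sham and to 6282, 6205 and 5819 CPM in KO sham. Rps15 (chromosome 10, 80292431 to 80294114), a protein of the small subunit, was at 225, 261 and 285 CPM against 153, 132 and 135 CPM (-0.86 ± 0.10, adjusted p = 1.1e-05). Rpl14, of the large subunit, fell by 0.99 (adjusted p = 1.1e-05), and the 2 deepest falls of the list were Rpl27 (-1.53 ± 0.23) and Rps21 (-1.42 ± 0.20). The KO libraries of each of these genes lay below all WT libraries, which the rule for named genes required at least for Rpl27.

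Genes of the respiratory chain were lower in part. Of 40 nuclear-encoded subunits, 9 fell (22.5%) and 0 rose in edgeR, with a median of -0.36. Cox4i1, a subunit of cytochrome c oxidase, was at 107, 110.1 and 125 CPM against 60.3, 71.7 and 43.4 CPM (-0.93 ± 0.14, adjusted p = 0.000182). The ATP synthase coupling factor gene Atp5j (Atp5pf) fell by 1.24 and the complex I subunit genes Ndufa2 and Ndufa4 by 1.31 and 0.68. Outside these lists Snhg8, a host gene of small nucleolar RNAs, was lower (adjusted p = 0.00105 in edgeR).

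Many of these genes are short, and the fold change followed exon length across all genes. Among 5 equal bins of genes, the one with the shortest exons (28 to 1629 bases) had a median fold change of -0.21, with 10.1% lower and 1.16% higher, and the one with the longest (4850 to 104320 bases) one of 0.12, with 1.64% lower and 9.46% higher. Without ribosomal protein genes the shortest bin had a median of -0.19. After the length trend was removed 863 genes were called, 742 of them among the 1148. Then 30 of 59 ribosomal protein genes were lower and 1 higher, and 3 of 40 respiratory genes were lower. Without KO sham 348 and 350 together 33 ribosomal protein genes and 2 respiratory genes were lower, and 14 respiratory genes were lower without KO sham 349. Without WT sham 133 as well, 26 and 1 were lower. The part of exon length in the remaining difference was not tested. Refits without 1 library ended the call on Ndufa4 (without 132, highest adjusted p = 0.0669), and so did the removal of the length trend (-0.25, adjusted p = 0.309).

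Of single short RNAs, Scarna10, a small Cajal body RNA, was at 94.9, 115 and 117 CPM in WT sham and 36.1, 42.6 and 43.6 CPM in KO sham (-1.41 ± 0.14, adjusted p = 2.19e-06), and Snord22 fell by 1.70. With the length trend removed Scarna10 had a value of -0.46 (adjusted p = 0.37) and Snord22 one of -0.88 (adjusted p = 0.0913). Rmrp, the RNA of the RNase MRP complex, fell by 1.11 and by 0.51 with the trend removed. Rpph1, the RNA of RNase P, was at 6841, 7546 and 7402 CPM against 5128, 4607 and 5229 CPM and fell by 0.54, but had a value of 0.03 with the trend removed (adjusted p = 0.92). Rprl3 (chromosome 8, 3803125 to 3803361, 237 bases), listed as an RNA similar to that of RNase P, went the other way. It had 0 counts in each WT sham library and 1470, 2412 and 958 counts in KO sham 348, 349 and 350, or 164, 245 and 197 CPM, which is at least 1714-fold higher against a floor of 3 counts over the WT sham group. In the 9 TAC libraries it had at most 2 counts, KO TAC included. Rprl3 has near-identical copies in the genome, and reads that mapped more than once were not counted, so its counts are uncertain.

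Interferon-stimulated genes were lower in part. Of 59 tested, 9 fell (15.3%, against 4.63% of all genes) and 1 rose (1.69%), with a median of -0.16. The summed level of the list was 7961 to 8964 CPM in WT sham and 7516 to 8269 CPM in KO sham, so the groups overlapped. Isg15 (chromosome 4, 156199424 to 156200818), a ubiquitin-like modifier, was at 36.03, 43.5 and 36.1 CPM against 18.3, 23.9 and 13.6 CPM (-1.04 ± 0.19, adjusted p = 0.00168). Bst2, which encodes the virus-tethering protein tetherin, was at 96.9, 109.6 and 130.2 CPM against 48.8, 66.03 and 61.9 CPM (-0.90 ± 0.16, adjusted p = 0.000953). Every KO library lay below every WT library for both genes. Ifi27l1 (Ifi27) fell by 0.78, with 80.7 to 84.3 CPM in WT sham and 38.5 to 54.3 CPM in KO sham, and the RNA-binding effector genes Ifit1 and Ifit3 by 0.59 and 0.62. The others were Rsad2, the gene of viperin (-0.53), Nmi (-0.93), Parp12 (-0.34) and the nucleotide kinase gene Cmpk2 (-0.36), and the riser was Lgals3bp (0.36 ± 0.11). The transcription factor gene Irf7 was not called, with -0.44 ± 0.15 (adjusted p = 0.0718) and overlapping libraries.

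Genes of antigen presentation were lower in part. Of 22 genes of MHC class I and antigen processing, 8 fell (36.4%) and 0 rose, 20 lay below 0, and the median was -0.38. The immunoproteasome subunit Psmb8 was at 82.05, 97.8 and 86.5 CPM against 41.4, 53.96 and 52.6 CPM (-0.86 ± 0.17, adjusted p = 0.00276). Its partners Psmb9 and Psmb10 fell by 0.55 and 0.64, the proteasome activator Psme2 by 0.68, the peptide transporter Tap2 by 0.47, the heavy chain gene H2-D1 by 0.40, and H2-Q4 and H2-Q6 by 0.50 and 0.62. H2-D1, H2-Q4 and H2-Q6 belong to a family of near-identical genes between which reads can be split, so their values are uncertain.

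Without WT sham 132 the interferon list had 3 lower genes. The MHC class I list had 2 without WT sham 132 or without KO sham 348, 3 without WT sham 133, 5 without WT sham 131 or without KO sham 349, and 2 with the length trend removed. Single libraries ended the calls on Ifit1 (without 132 or 350, highest adjusted p = 0.242), Ifit3 (without 132, 133 or 348, highest adjusted p = 0.159), Rsad2 (without 132 or 350, highest adjusted p = 0.11), Parp12 (without 132 or 348, highest adjusted p = 0.0949), Nmi (without 131 or 132, highest adjusted p = 0.138), Cmpk2 (without 131, 132, 133, 349 or 350, highest adjusted p = 0.256), Lgals3bp (without 131, 132, 133 or 348, highest adjusted p = 0.188), Psmb9 (without 131, 132, 133, 348 or 349, highest adjusted p = 0.18), Psmb10 (without 132, highest adjusted p = 0.0551), Psme2 (without 133 or 348, highest adjusted p = 0.0616), Tap2 (without 131, 132, 133, 348 or 349, highest adjusted p = 0.143), H2-D1 (without 132 or 348, highest adjusted p = 0.128), H2-Q4 (without 131, 132, 133, 348 or 349, highest adjusted p = 0.171) and H2-Q6 (without 131, 132, 133, 348 or 350, highest adjusted p = 0.191). Without KO sham 348 and 350 together 1 interferon gene and 2 MHC class I genes were called lower.

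Promoters of interferon-stimulated genes were searched for their response element, read as GAAA, any 2 letters and GAAA, on either strand. Of the 9 that fell, 8 had a window and 5 of these held it (Bst2, Ifit1, Ifit3, Isg15 and Rsad2), in 62.5% of windows against 3.44% of all. The 7 MHC class I genes with a window held none. Members of either list that did not fall were not counted, so these shares do not bear on the change in KO sham. The promoters of Isg15, where 3 matches overlap, and of Ifit1, where both matches lie on the other strand, are given with the matches in capitals as the sequence by which this group is known.
Isg15 (chr4:156200799-156201018, minus strand): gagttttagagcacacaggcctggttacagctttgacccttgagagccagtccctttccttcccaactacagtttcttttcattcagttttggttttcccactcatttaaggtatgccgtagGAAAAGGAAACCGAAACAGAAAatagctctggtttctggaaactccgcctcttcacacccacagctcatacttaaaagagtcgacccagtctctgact
Ifit1 (chr19:34640689-34640908, plus strand): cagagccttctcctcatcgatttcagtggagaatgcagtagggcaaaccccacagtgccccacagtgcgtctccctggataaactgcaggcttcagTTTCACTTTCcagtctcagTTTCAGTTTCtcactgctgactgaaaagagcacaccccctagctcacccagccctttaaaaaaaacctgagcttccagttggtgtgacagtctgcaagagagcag

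Few genes of inflammation passed the test. Of 27 genes of NF-kappaB and inflammatory mediators, 3 rose (11.1%, against 4.57%) and 0 fell in edgeR, with a median of 0.03. The risers were the chemokine gene Ccl2 (1.95 ± 0.57, 1.13, 0.887 and 2.26 against 3.13, 5.48 and 4.73 CPM), Tnfaip2 (1.10 ± 0.29) and the adhesion molecule gene Icam1 (0.49 ± 0.15). Each of these calls was lost without some single libraries, namely for Ccl2 (without 131, 132 or 349, highest adjusted p = 0.199), Tnfaip2 (without 131, 133 or 349, highest adjusted p = 0.124) and Icam1 (without 131, 132, 133 or 350, highest adjusted p = 0.17). One of the largest increases of all genes was that of Ltc4s, the synthase of leukotriene C4, a lipid mediator that raises vascular permeability. Ltc4s (chromosome 11, 50236472 to 50238471) was at 1.51, 2.81 and 2.26 CPM in WT sham and 18.3, 21.4 and 20.98 CPM in KO sham (3.19 ± 0.43, adjusted p = 7.87e-05), with the KO libraries close together.

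**Figure D4:**
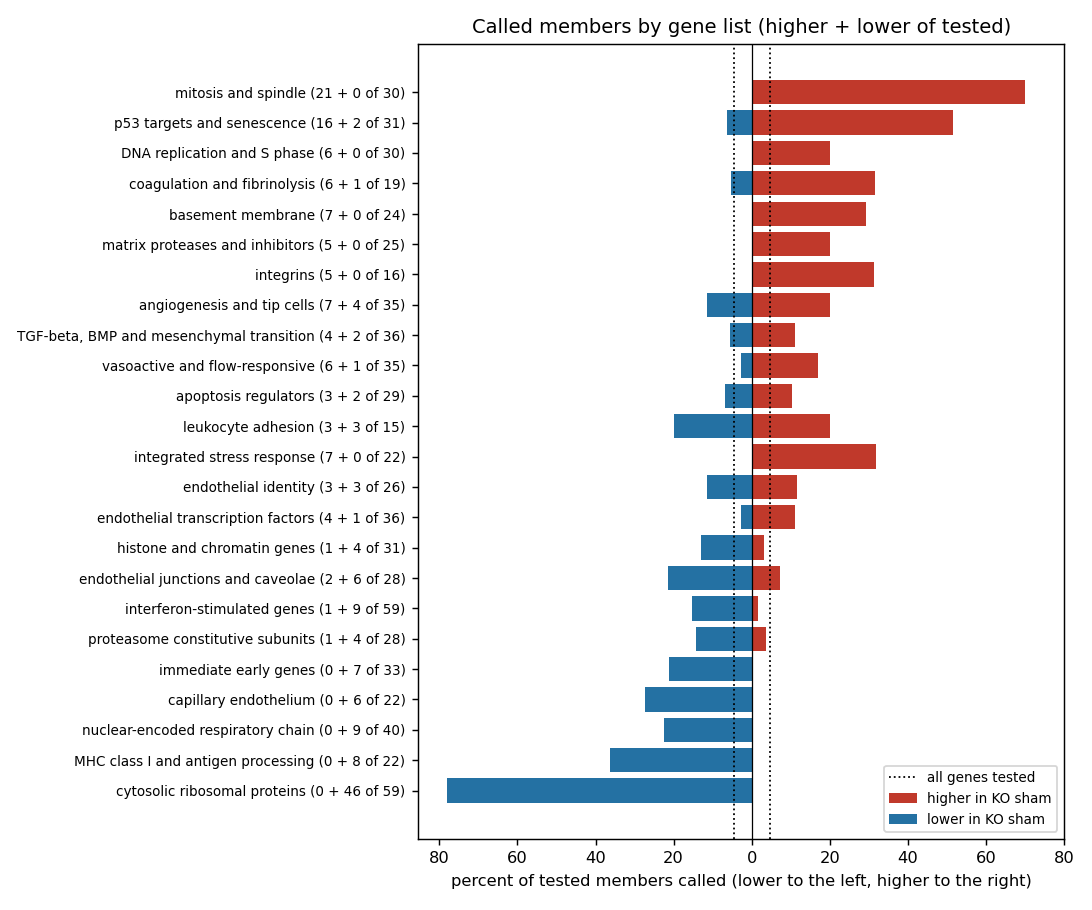
Percent of tested members called higher (red, to the right) and lower (blue, to the left) in KO sham for the gene lists with at least 5 called members, ordered by median fold change. Numbers beside each name are members higher plus lower of those tested, and dotted lines mark 4.57% and 4.63%, the shares over all genes tested. Mitosis and p53 lists reach 70% and 51.6% to the right, and ribosomal proteins 78% to the left.

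Capillary genes of the endothelium were lower in part, while general endothelial markers were divided. Of 22 capillary genes, 6 fell (27.3%) and 0 rose in edgeR, with a median of -0.28. Fabp4 (chromosome 3, 10204343 to 10208576), a fatty acid carrier, was at 2045, 1811 and 2710.0 CPM in WT sham and 868, 963 and 793 CPM in KO sham (-1.32 ± 0.14, adjusted p = 4.18e-06). Tcf15, a transcription factor that drives fatty acid uptake in heart endothelium, went from 95.9, 104 and 117 CPM to 39.4, 48.7 and 39.1 CPM (-1.29 ± 0.17, adjusted p = 4.95e-05). The retinol carrier gene Rbp7 fell by 1.05, the membrane carbonic anhydrase gene Car4 by 0.93 and 1190002H23Rik (Rgcc) by 0.73. Cd36, the fatty acid translocase, was at 6422, 6740.0 and 6708 CPM against 4746, 5264 and 5232 CPM and fell by 0.38. Of 38 genes of fatty acid uptake and oxidation, 4 fell (10.5%) and 0 rose, with a median of -0.08. Beside Fabp4 and Cd36 these were Dgat1, which makes triglyceride (-1.02), and the transporter gene Slc27a4 (-0.52).

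Among 26 genes of endothelial identity, 3 rose and 3 fell (11.5% each), with a median near 0. Cdh5, the gene of vascular endothelial cadherin, rose by 0.30 ± 0.07, Pecam1, the gene of the sorted antigen CD31, by 0.31 ± 0.07 and Mmrn2, a matrix glycoprotein of vessels, by 0.41 ± 0.09. The angiopoietin receptor gene Tek was at 793, 812 and 777 CPM against 551, 564 and 659 CPM and fell by 0.43 (adjusted p = 0.0015), and Clec14a fell by 0.41. Of 23 arterial genes 4 fell (17.4%) and 0 rose: Rbp7, the lymphangiogenic ligand gene Vegfc (-0.64), Stmn2 (-0.70) and Tm4sf1 (-0.63). Venous genes went the other way, as 2 of 16 rose (12.5%, against 4.57% of all genes), 0 fell and 15 lay above 0. Their median was 0.385, and they summed to 3227 to 3843 CPM in WT sham and 4109 to 4524 CPM in KO sham. The venous list held 1 higher gene without WT sham 131, 132 or 133 and 6 without KO sham 350. Of 28 genes of junctions and caveolae 2 rose and 6 fell (21.4%), among them Ctnna1, the link between cadherins and actin (-0.36), the connexin gene Gja1 (-0.46) and the tight junction gene Jam2 (-0.35).

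The gene of the aryl hydrocarbon receptor and its target Cyp1a1 were lower. Of 9 tested genes of this pathway, 2 fell (22.2%, against 4.63% of all genes) and 1 rose (11.1%, against 4.57%). The other 6 were not called, and the median was -0.18. Cyp1a1 (chromosome 9, 57687928 to 57703824), a xenobiotic oxidase, was at 32.4, 47.2 and 38.4 CPM in WT sham and 3.46, 5.99 and 8.23 CPM in KO sham, the deepest fall under the rule for named genes (-2.79 ± 0.37, adjusted p = 5.13e-05). Ahr, the receptor itself, went from 173, 158 and 125 CPM to 95.8, 77.7 and 108 CPM (-0.73 ± 0.12, adjusted p = 0.000568). The libraries of both groups stood apart for both genes, which for Cyp1a1 the rule for named genes required.

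Without KO sham 348 the fatty acid list had 1 lower gene and the junction list 3, without WT sham 131 the junction list had 3, without WT sham 132 they had 1 and 2, without WT sham 133 the fatty acid list had 1, and without KO sham 350 it had 2 lower and 1 higher. The capillary list had 3 lower genes without WT sham 133, KO sham 348 and KO sham 350 together and 2 against a fold of 1.5. Calls ended by leaving out 1 library were those on Cd36 (without 132, 133 or 348, highest adjusted p = 0.106), 1190002H23Rik (without 132, 133, 348 or 349, highest adjusted p = 0.14), Dgat1 (without 131, 132, 133, 348 or 350, highest adjusted p = 0.146), Slc27a4 (without 132, 133, 348 or 350, highest adjusted p = 0.246), Pecam1 (without 133, highest adjusted p = 0.0639), Gja1 (without 132 or 348, highest adjusted p = 0.0809) and Jam2 (without 131, 132, 348 or 349, highest adjusted p = 0.115).

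Apln (chromosome X, 48025146 to 48034852), which encodes apelin, a peptide of tip cells that lead new sprouts, was at 66.5, 77.6 and 60.2 CPM against 275, 357 and 218 CPM (2.03 ± 0.18, adjusted p = 3.63e-07). Of 35 genes of angiogenesis and tip cells 7 rose (20%) and 4 fell (11.4%), with a median of 0.12, and Nrp2, a co-receptor of VEGF and semaphorins, rose by 0.49 ± 0.09. Those that fell included Vegfc (-0.64), Tek (-0.43) and 1190002H23Rik (-0.73). Of 24 basement membrane genes 7 rose (29.2%) and 0 fell, with a median of 0.26. Nid2, a nidogen that links laminin to collagen IV, was at 223, 216 and 189 CPM against 388, 353 and 320.2 CPM (0.75 ± 0.13, adjusted p = 0.000727), and the crosslinking peroxidase gene Pxdn rose by 0.55 ± 0.08, Papln by 0.61 ± 0.11 and Hspg2, the gene of perlecan, by 0.45 ± 0.09. With the length trend removed 4 of the 24 were higher and 1 lower, and Hspg2 had a value of 0.23 (adjusted p = 0.0523).

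Sulf2 (chromosome 2, 166073899 to 166155683), a sulfatase that edits heparan sulfate outside the cell, rose the most among 25 matrix proteases and related genes, from 3.49, 2.44 and 1.505 CPM to 14.2, 19.9 and 24.1 CPM (2.77 ± 0.28, adjusted p = 2.19e-06). Of these 25, 5 rose (20%) and 0 fell, and Timp2, an inhibitor of matrix metalloproteinases, rose by 0.67 ± 0.11, the plasminogen activator gene Plau by 0.99 ± 0.18 and Adam12 by 0.88 ± 0.22. Integrin subunits rose in 5 of 16 cases (31.2%) and fell in 0, among them Itga9 (0.72 ± 0.14), Itga5 (0.37 ± 0.09), Itga2 (1.47 ± 0.37) and Itgb4 (0.97 ± 0.27). The matrix protein genes Fn1 (fibronectin) and Tnc (tenascin C) rose by 0.61 ± 0.13 and 1.65 ± 0.27. They were 2 of 3 risers among 33 fibrillar matrix genes (9.09%), of which 1 fell (3.03%). Of 19 genes of coagulation and fibrinolysis 6 rose (31.6%), among them Gas6, a ligand of TAM receptors (0.60 ± 0.09), and Pros1, the gene of protein S (0.50 ± 0.09). The 1 that fell was Thbd, the gene of thrombomodulin (1040.0, 1149 and 906 against 722, 679 and 673 CPM, -0.58 ± 0.09, adjusted p = 0.000517).

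Basement membrane genes called higher numbered 4 without KO sham 348, without WT sham 132 or without WT sham 133, and 12 without KO sham 350. The integrin list held 2 without WT sham 131, 132 or 133, and 3 higher and 1 lower without KO sham 349. The protease list held 3 without WT sham 131, 4 higher and 2 lower without KO sham 349 and 5 higher and 1 lower without KO sham 350, and the coagulation list 3 without WT sham 131 or 133. The angiogenesis list held 4 higher and 4 lower without WT sham 131, 4 and 2 without WT sham 133, and 5 and 2 without KO sham 348. It held 3 higher and 5 lower in limma voom, and 2 and 1 without WT sham 133, KO sham 348 and KO sham 350 together. Single libraries ended the calls on Adam12 (without 131, highest adjusted p = 0.0939), Itga5 (without 133, highest adjusted p = 0.0501), Itga2 (without 131 or 132, highest adjusted p = 0.0625) and Itgb4 (without 131, 132, 133 or 349, highest adjusted p = 0.141).

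Of 22 genes of the integrated stress response, which raises amino acid supply when translation is restrained, 7 rose (31.8%) and 0 fell, with a median of 0.04. Gdf15 and Sesn2 belong to this list too. Slc7a5, a transporter of large neutral amino acids, rose by 1.11 ± 0.20 (13.9, 19.1 and 10.5 against 43.3, 27.5 and 30.02 CPM), the proline synthesis gene Aldh18a1 by 0.79 ± 0.23 and the glutamine transporter gene Slc38a2 by 0.44 ± 0.11. Immediate early genes are induced within minutes by many stimuli, the dispersal of a tissue into cells among them. Here 7 of 33 fell (21.2%) and 0 rose, with a median of -0.25. Ier2 fell by 0.88, the AP-1 subunit genes Jun, Junb and Fos by 0.57, 0.65 and 0.67, and outside the list Id1 and Id3, targets of BMP signalling, fell by 0.76 and 0.66. With the length trend removed both calls ended, with values of -0.49 for Id1 (adjusted p = 0.0914) and -0.41 for Id3 (adjusted p = 0.0645). Jun was at 1094, 1123 and 1685 CPM against 759.7, 892 and 958 CPM, with WT sham 133 far above the other WT libraries. Without WT sham 133 the immediate early list had 1 lower gene, without KO sham 348 it had 4, and without KO sham 348 and 350 together it had 0. The stress response list had 3 and 4 higher genes without WT sham 131 and 132, and 2 without KO sham 348 and 350. Calls that 1 library ended were those on Aldh18a1 (without 131, 132 or 348, highest adjusted p = 0.188), Slc38a2 (without 131 or 132, highest adjusted p = 0.0871), Jun (without 133, highest adjusted p = 0.0648), Junb (without 133 or 348, highest adjusted p = 0.0953), Fos (without 133, highest adjusted p = 0.0752) and Id1 (without 133 or 348, highest adjusted p = 0.063).

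Other large changes fell outside these groups. Cpt1c, a brain-type relative of the carnitine palmitoyltransferases, was at 2.55, 2.81 and 2.26 CPM in WT sham and 22.8, 17.4 and 7.81 CPM in KO sham (2.62 ± 0.37, adjusted p = 0.000133), highest in 348. Prrg4, which encodes a membrane protein with a Gla domain, went from 7.07, 4.80 and 3.01 CPM to 24.1, 28.3 and 23.03 CPM (2.18 ± 0.23, adjusted p = 2.59e-06). The KO libraries of both lay above the WT range, which the rule for named genes required. Hrh2, the histamine H2 receptor gene, was at 15.00, 13.5 and 12.04 CPM against 4.92, 6.49 and 3.08 CPM (-1.47 ± 0.34), and the histone H4 gene Hist1h4c (H4c3) at 37.5, 40.1 and 51.2 CPM against 12.6, 17.9 and 15.8 CPM (-1.42 ± 0.19). Polr2f, a subunit shared by the RNA polymerases, was at 10.3 to 16.6 CPM in WT sham and 2.06 to 5.88 CPM in KO sham (-1.82 ± 0.32), and Khk, the gene of ketohexokinase, was at 6.79 to 13.5 CPM in WT sham and 1.44 to 5.07 CPM in KO sham (-1.48 ± 0.36). Romo1, a small mitochondrial membrane protein gene, was at 0 in KO sham 350 and fell by 1.68. Refits without 1 library ended the calls on Khk (without 132, highest adjusted p = 0.0542) and Romo1 (without 131, 132, 133 or 348, highest adjusted p = 0.144).

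Markers of other heart cells were examined across the same libraries. Of 23 cardiomyocyte genes 0 rose and 0 fell in edgeR, with 1 in each direction at an unadjusted p under 0.05 and 1 called higher by DESeq2, and their level summed to 563.5 to 590.7 CPM in WT sham and 527.7 to 636.5 CPM in KO sham. Among 18 pericyte and smooth muscle genes 4 rose (22.2%) and 0 fell, and their sums were 282.9 to 332.9 CPM in WT sham and 411.2, 330.5 and 492.5 CPM in KO sham 348, 349 and 350. The risers were the potassium channel subunit gene Abcc9 (0.76 ± 0.18), Steap4 (0.89 ± 0.24), the proteoglycan gene Cspg4 (1.32 ± 0.36) and the PDGF receptor gene Pdgfrb (0.84 ± 0.26), whose libraries overlapped. Fibroblast genes summed to 297.8 to 512.4 CPM in WT sham and 617.4, 306.3 and 291.8 CPM in KO sham, and of 18 tested 1 rose and 1 fell, the latter the PDGF receptor gene Pdgfra (-0.97 ± 0.20). Leukocyte and macrophage genes summed to 31.4 to 54.9 CPM against 26.7 to 38.0 CPM, and lymphocyte genes to 1.70 to 3.01 CPM against 1.03 to 5.70 CPM, and the T cell gene Cd3e had 0 counts in all 6 sham libraries. Erythroid and platelet genes summed to 79.4 to 129.4 CPM in WT sham and 57.3 to 71.7 CPM in KO sham, and the adult beta-globin gene Beta-s fell by 1.41. The part of these cells in the endothelial results was not tested, except that 1237 genes were called with the cardiomyocyte level as a covariate, 1137 of them shared with the 1148. The pericyte list had 1 higher gene without WT sham 131, 132 or 133, 2 without KO sham 348 or 350, and 0 without KO sham 348 and 350 together, with the calls lost on Abcc9 (without 131, highest adjusted p = 0.0634), Steap4 (without 131, 132, 133 or 348, highest adjusted p = 0.092), Cspg4 (without 131, 132, 133 or 350, highest adjusted p = 0.0855) and Pdgfrb (without 132, 133, 348 or 350, highest adjusted p = 0.211).

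The same genotypes were also compared after TAC, in 9 libraries that share none with the sham comparison, to place the sham effect. Sample numbers followed genotype there too. There 3715 genes (29.8%) were called, 1846 higher (14.8%) and 1869 lower (15%). Of the 1148 genes changed in sham, 850 were also called after TAC, which is 74.04% of the sham calls and 22.88% of the TAC calls, and 848 of these moved in the same direction. The fold change had the same sign after TAC for 95.47% of the sham calls and for 68.43% of all genes tested. The p53 list had 21 higher and 5 lower genes after TAC with a median of 0.80, the mitosis list 30 higher and a median of 1.97, ribosomal proteins 52 lower and a median of -0.62, interferon-stimulated genes 4 higher and 28 lower with a median of -0.33, and capillary genes 20 lower and a median of -0.64. Not every list kept its sham direction. The venous median was 0.385 in sham and -0.08 after TAC, with 5 higher and 5 lower genes after TAC. That of fibrillar matrix was 0.356 and -0.344 (6 higher and 10 lower after TAC). Pericyte and smooth muscle genes had medians of 0.296 and -0.147 (4 higher and 2 lower after TAC). The exon-length trend was present after TAC too, with medians of -0.23 in the shortest and 0.18 in the longest bin.

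Whether the genotype effect itself differed between surgeries was tested as an interaction. It passed for 86 genes (0.69%), 25 with a TAC effect above and 61 with one below the sham effect, and 1819 had an unadjusted p under 0.05. Of these 86, 19 were also called in sham. Mdm2 rose by 0.40 in sham and 1.19 after TAC, a difference of 0.80 ± 0.14 (adjusted p = 0.0138). Car4 had a value of -0.93 in sham and -2.24 after TAC, a difference of -1.31 ± 0.22 (adjusted p = 0.0117). The junction gene Jam2 and Fcgrt, the gene of the neonatal Fc receptor, fell by 0.35 and 0.41 in sham and differed by -0.85 ± 0.12 and -0.82 ± 0.12 (adjusted p = 0.00385 and 0.00481). These 4 differences were called in all 15 refits without 1 library. For the mitosis list 0 of 30 members and for ribosomal proteins 0 of 59 passed the interaction test in edgeR, with 1 and 8 at an unadjusted p under 0.05, which does not show that their effects were equal. The count of 86 ranged from 25 without WT sham 133 to 764 without KO sham 349, and DESeq2 called 318. Other libraries that moved it by over 1.5 times were WT sham 131 (27) and 132 (46), WT TAC 134 (43), 135 (168), 136 (31), 137 (35) and 138 (45), and KO TAC 351 (48), 352 (36) and 353 (37).

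**Figure D5:**
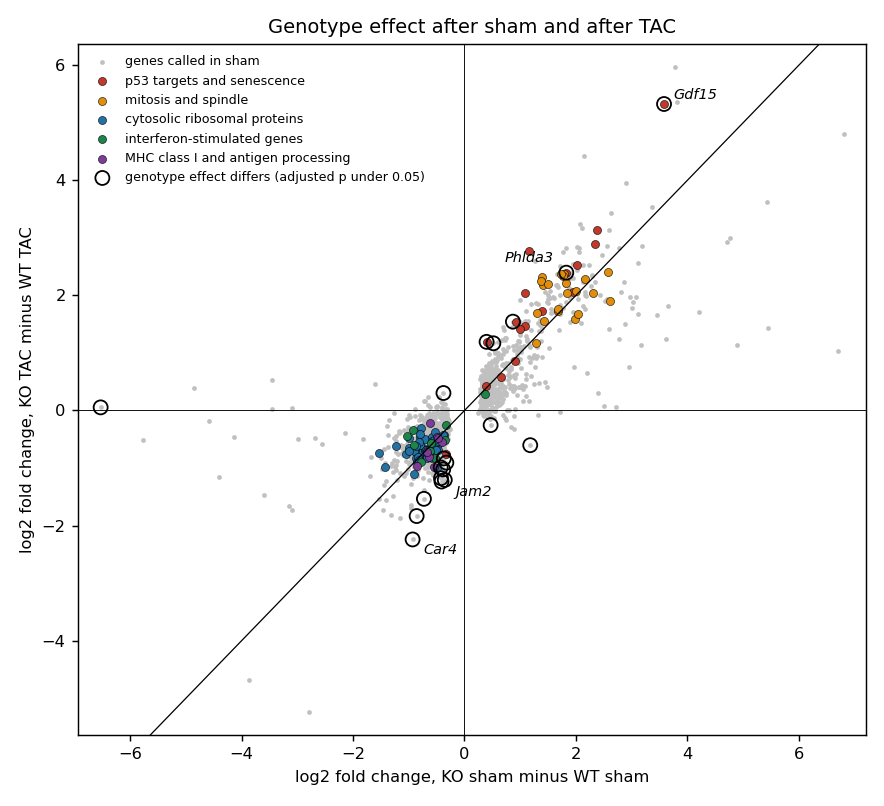
Log2 fold change of KO sham minus WT sham (x axis) against that of KO TAC minus WT TAC (y axis) for the genes called in sham, without Rprl3. Coloured points are members of 5 lists, the diagonal marks equal effects, and open circles mark the genes whose genotype effects differed with an adjusted p under 0.05 in edgeR. Most points lie in the lower left and upper right, and Gdf15 and Car4 lie farther from zero after TAC.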

How the data were processed

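RNA was measured in endothelial cells sorted from mouse hearts, in 15 libraries of 4 groups. The deposited values are raw counts per gene made by the authors with featureCounts 1.6.2, per the file headers, with reverse-strand counting on an mm10 UCSC annotation, and reads that mapped or were assigned more than once were not counted. HISAT2 2.1.0 is named in the submitters' processing notes. RNA was prepared with RNeasy Plus and libraries with TruSeq kits, per the labels' protocols.

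Of 23337 genes listed, 6512 lacked a count in every library, and 18 tested ones had names turned into dates. Counts were fitted with edgeR 4.0.16 in R 4.3.3 (TMM factors, filterByExpr, 1 quasi-likelihood fit over 15 libraries with 11 residual degrees of freedom, no covariate), which left 12471 genes. Contrasts were KO minus WT after sham, the same after TAC, and their difference. CPM were computed from the counts and TMM factors. The depth of a library set a floor of 3 counts at 0.222 to 2.26 CPM in sham. The closest replicates (WT sham 132 and 133) differed by a chi-square of 3.08 per degree of freedom, above sampling noise. The other WT sham pairs differed by 3.485 (131 and 133) and 9.795 (131 and 132), and the KO sham pairs by 11.12 to 16.3. This measure also depends on depth, and WT sham 133 was shallow.

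Alternatives were DESeq2 1.42.0, limma 3.58.1, other factors and filters, each library left out, and, chosen after the data were seen, removal of the exon-length trend and of 3 libraries. Gene lists (55, with 1468 entries, 1436 matched by symbol, 24 by synonym and 8 unmatched) and the comparison were chosen with earlier results of these data known. Named genes were the 15 largest changes in each direction among called genes with at least 5 CPM and no overlap, up to 4 per list by p, 10 by the difference test, and a short list on STING and endothelial activation. Named outside that rule, after their values were seen, were Trp53inp1, Ccng1, Ei24, Aen, Mdm2, Lrdd, Trp53, Fas, Cdkn1b, Top2a, Mki67, Bub1, Ccnb1, Ccnb2, Cenpf, Rpph1, Rmrp, Parp12, Psmb9, Tap2, Lgals3bp, Gja1, Aldh18a1, Cxcl12, Psmb5, Bcl6b, 1190002H23Rik, Nmi, Cmpk2, H2-Q4 and H2-Q6. Promoter windows of 300 bases came from NCBI RefSeq (GRCm38.p6), and sequences were read with Python 3.11.15. The fit was tested on simulated counts. Some genes of the lists are counted but not reported here by name.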

Additional observations from a re-analysis of the deposited data

Results flagged for a closer look

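Of the genes named, 15 passed the test of a difference between the genotype effect after TAC and that after sham in edgeR, and values are TAC minus sham ± SE on the log2 scale. The rule for named genes included the 10 with the smallest p in this same test, so the count of 15 was partly set by that choice. Over all genes tested 86 (0.69%) passed. Those with a larger rise after TAC were Gdf15 (1.75 ± 0.40), Mdm2 (0.80 ± 0.14) and Phlda3 (0.57 ± 0.13). Those with a lower value after TAC were the ephrin gene Efna1 (-1.13 ± 0.16), Jam2 (-0.85 ± 0.12), Fcgrt (-0.82 ± 0.12), Fxyd6 (-0.94 ± 0.15), Fmo1 (-0.66 ± 0.11), Sema6a (-0.67 ± 0.11), Car4 (-1.31 ± 0.22), Klra9 (-2.07 ± 0.36), Tek (-0.56 ± 0.10), Ahr (-0.81 ± 0.15), Cd36 (-0.64 ± 0.14) and the VEGF receptor gene Kdr (-0.45 ± 0.10). The calls on Phlda3 and Gdf15 were lost in 12 of 15 refits without 1 library (highest adjusted p = 0.149 and 0.193), those on Cd36 and Kdr in 11 (0.13 and 0.105) and that on Ahr in 1, without WT sham 133 (0.0524). The other 10 calls held in all 15 refits. Groups of 3 libraries were not examined for single outlying values.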

How the results depend on the processing

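The count of 1148 genes called in sham was 1152 with RLE factors, 1153 without a filter, 1200 with a filter at 5 CPM, 1177 without genes at 0 where 10 counts were expected, 1489 by DESeq2 and 863 with the exon-length trend removed. It was 289 with the 6 sham libraries alone, 463 by limma voom, 77 against a fold of 1.5, 394 without KO sham 348 and 350, and 292 when WT sham 133 was left out as well. Refits without 1 library gave 505 to 2014. The share of called genes that were higher was 53.9% with RLE factors and 57.4% with the filter at 5 CPM against 49.7%. The count of 86 differences was 77 with RLE factors, 318 by DESeq2 and 25 to 764 without 1 library, and the TAC count was 3686, 3912 and 2868 to 4539. Of the 162 named genes called in sham, 161 kept their call in DESeq2, 157 with RLE factors, 133 with the length trend removed, 107 in limma voom, 87 with the sham libraries alone and 72 without the 3 libraries. Removing the length trend ended 28 calls, those on Scarna10, Snord22, Ndufa4, Hspg2, Id1 and Id3, on Hsp90b1, Fas, Cdkn1b, Brca1, Polk, Dgat1, Pdgfrb, Jam3, Pde5a, Psmb5, Hspd1, Romo1 and 1190002H23Rik, and on the interferon and MHC class I genes Ifit3, Nmi, Cmpk2, Psmb9, Psme2, Tap2, H2-D1, H2-Q4 and H2-Q6. Signs reversed for Rpph1, to 0.029 with the length trend removed, and for Kdr, which was not called, to 0.0041 with RLE factors, 0.019 with the filter at 5 CPM, 0.0028 by DESeq2, 0.0082 without genes at 0, and between -0.077 and 0.028 without 1 library. The cause was not tested. No paired analysis was possible because the groups share no sample numbers. Depth limits WT sham 133 most, where 3 counts are 2.26 CPM.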

Other observations

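Histone and chromatin genes and constitutive proteasome subunits were lower in part. Of 31 histone and chromatin genes 4 fell (12.9%, against 4.63% of all genes) and 1 rose, and Hist1h1c, a linker histone gene, was at 182, 161 and 175 CPM in WT sham and 102, 117 and 109.6 CPM in KO sham (-0.65 ± 0.11, adjusted p = 0.000864 in edgeR). Of 28 constitutive proteasome subunits 4 fell (14.3%) and 1 rose, among them Psmb5, a catalytic subunit (-0.67 ± 0.21), and Psma4 (0.64 ± 0.15). With the exon-length trend removed 4 histone and chromatin genes and 0 proteasome subunits were lower. The mitochondrial chaperone gene Hspd1 (-0.71 ± 0.22) was 1 of 2 that fell among 18 heat shock genes. Among apoptosis regulators beside Bax and Bbc3, Bok fell (-1.12 ± 0.24) and Apaf1, the scaffold of the apoptosome, rose (0.56 ± 0.15). Refits without 1 library ended the calls on Psmb5 (without 131, 132, 133, 349 or 350, highest adjusted p = 0.199), Psma4 (without 132 or 348, highest adjusted p = 0.0866), Hspd1 (without 131, 132, 133, 348 or 350, highest adjusted p = 0.224) and Apaf1 (without 132, 133 or 348, highest adjusted p = 0.142).

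Vasoactive and flow-responsive genes rose in 6 of 35 cases (17.1%, against 4.57% of all genes) and fell in 1. Beside Apln, the risers included the phosphodiesterase gene Pde5a (0.87 ± 0.24), Bmp4 (0.68 ± 0.20), the vasodilator peptide gene Adm (0.56 ± 0.17) and Ctgf, a matricellular protein gene (0.62 ± 0.18). Leukocyte adhesion genes moved both ways, with 3 of 15 higher and 3 lower, and Cd34, a sialomucin of vessels, rose (0.40 ± 0.11) where the chemokine gene Cxcl12 fell (-0.31 ± 0.10). Of 36 endothelial transcription factors and regulators 4 rose and 1 fell, the risers being Meox1 (0.57 ± 0.12), Bcl6b (0.47 ± 0.11), Heg1 (0.39 ± 0.09) and Mef2a (0.37 ± 0.09). The vasoactive list held 1 higher gene without WT sham 132, 2 without WT sham 131 and 3 without WT sham 133. Calls ended by 1 library were those on Pde5a (without 131, 132, 133 or 348, highest adjusted p = 0.148), Bmp4 (without 131, 132, 133 or 350, highest adjusted p = 0.154), Adm (without 131, 132, 348 or 349, highest adjusted p = 0.186), Ctgf (without 131, 132, 133 or 349, highest adjusted p = 0.164), Cd34 (without 131, 133, 348 or 349, highest adjusted p = 0.151), Cxcl12 (without 131, 132, 348 or 349, highest adjusted p = 0.209), Bcl6b (without 132, highest adjusted p = 0.0605) and Mef2a (without 133, highest adjusted p = 0.0575).

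In edgeR 0 of 20 glycolysis genes, 0 of 25 cholesterol synthesis genes, 0 of 10 lymphatic genes and 0 of 13 endocardial genes were called. At an unadjusted p under 0.05 there were 3, 2, 2 and 4, and DESeq2 called 1 cholesterol synthesis gene higher and none of the others.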
